A study of Mus musculus with 36 samples.

Results

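Among the nucleus accumbens (NAc) libraries of a mouse RNA sequencing study of nerve injury, 6 held at least 80 RPKM of Slc17a7 and 6 held under 40 RPKM, and no library lay between. RPKM are reads per kilobase of gene per M (mega) assigned reads. The 6 high and 6 low libraries make up all 12 NAc libraries, of 36 in the series. The high libraries are SNI 7 and 10 with sham 2, 3, 4 and 6, and the low libraries are SNI 8, 9, 11 and 12 with sham 1 and 5. They are no groups of the study: Slc17a7 itself chose them, so differences in expression between them are given as a description, without a test. Tests were kept to sequencing depth, surgery and the other brain regions, which the choice did not use. Some of the surgery models nevertheless hold the set, or Slc17a7 itself, as a term.

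All libraries came from adult male C57BL/6 mice, 2.5 months after spared nerve injury (SNI), which damages branches of the sciatic nerve and leaves lasting neuropathic pain, or after sham surgery. There were 6 SNI and 6 sham libraries for each of NAc, the prefrontal cortex (PFC) and the periaqueductal grey (PAG), and this account uses the 12 NAc libraries beside the 6 PFC sham and 6 PAG sham libraries. Polyadenylated RNA was sequenced from pooled RNA, and the labels do not say how many mice stand behind a library. P-values therefore measure the spread between libraries, which may be partly technical.

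NAc is the ventral part of the striatum. Its principal cells are GABAergic medium spiny neurons, which express dopamine receptors with the opioid peptide genes Penk or Pdyn, and glutamate reaches them through axons whose cell bodies lie elsewhere, in cortex, amygdala, hippocampus and thalamus. Slc17a7 encodes the vesicular glutamate transporter VGLUT1, which loads glutamate into the synaptic vesicles of cortical and hippocampal projection neurons. Neurod6 and Tbr1 are transcription factors of glutamatergic neurons of the telencephalon, and their transcripts mark cell bodies of such neurons.

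The labels of both sets held against the markers of the tissue. Each of 24 medium spiny neuron genes tested had a mean in the high libraries that was at least 294% of its PFC sham mean, the lowest being that of the transcription factor Ebf1. Penk, which encodes enkephalin, ranged from 603 to 813 RPKM in the high libraries (median 710) and from 825 to 1021 RPKM in the low libraries (median 962), against 9.62 to 13.7 RPKM in PFC sham libraries. All 12 libraries thus carried the leading transcript of the tissue they are labelled with, at a level far from that of PFC.

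Slc17a7 (ENSMUSG00000070570; chromosome 7, 45163949 to 45176142, mm10) had 178 and 101 RPKM in the high SNI libraries 7 and 10, and 97.8, 88.3, 113 and 139 RPKM in the high sham libraries 2, 3, 4 and 6. In the low libraries it had 15.7, 19.2, 37.7 and 2.53 RPKM in SNI 8, 9, 11 and 12, and 9.60 and 1.59 RPKM in sham 1 and 5. The values nearest to the limits were therefore 88.3 RPKM in sham 3 and 37.7 RPKM in SNI 11. The means were 120 ± 33.6 RPKM in the high libraries and 14.4 ± 13.4 RPKM in the low libraries (SD, n = 6 each), which are 25.3% and 3.04% of the 473 ± 23.7 RPKM of PFC sham libraries. The lowest NAc library lay under the PAG sham mean of 2.25 RPKM. In reads, Slc17a7 ran from 12938 in sham 3 to 33967 in SNI 7 among the high libraries, and from 267 in sham 5 to 3460 in SNI 11 among the low ones, so counting error is small beside these differences. In bulk tissue fewer cells of a type and less RNA per cell cannot be told apart, here and in what follows.

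Neurod6 (ENSMUSG00000037984; chromosome 6, 55677822 to 55681263) had 10.8 and 5.43 RPKM in the high SNI libraries 7 and 10, and 7.21, 5.83, 7.80 and 6.74 RPKM in the high sham libraries 2, 3, 4 and 6. It had 0.571, 1.12, 2.95 and 0.0981 RPKM in the low SNI libraries 8, 9, 11 and 12, and 0.493 and 0.146 RPKM in the low sham libraries 1 and 5. The sets did not overlap, and SNI 11 stood nearest to the high libraries, as it did for Slc17a7. The log2 difference of high minus low was 2.89 (SE 0.37) on the log2(RPKM + 0.5) scale, with surgery as a covariate. This scale understates the differences of low genes.

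Tbr1 (ENSMUSG00000035033; chromosome 2, 61802930 to 61814114) had 11.6 and 5.14 RPKM in the high SNI libraries 7 and 10, and 6.06, 5.14, 5.90 and 7.46 RPKM in the high sham libraries 2, 3, 4 and 6. In the low SNI libraries 8, 9, 11 and 12 it had 0.988, 1.2, 1.89 and 0.396 RPKM, and in the low sham libraries 1 and 5 it had 0.675 and 0.363 RPKM. Again no low library reached the level of a high one (log2 difference 2.57, SE 0.25), and the PFC sham libraries lay between 24.5 and 30.8 RPKM. Sham 5 and SNI 12 were the lowest of the low libraries for all 3 genes.

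**Figure D1:**
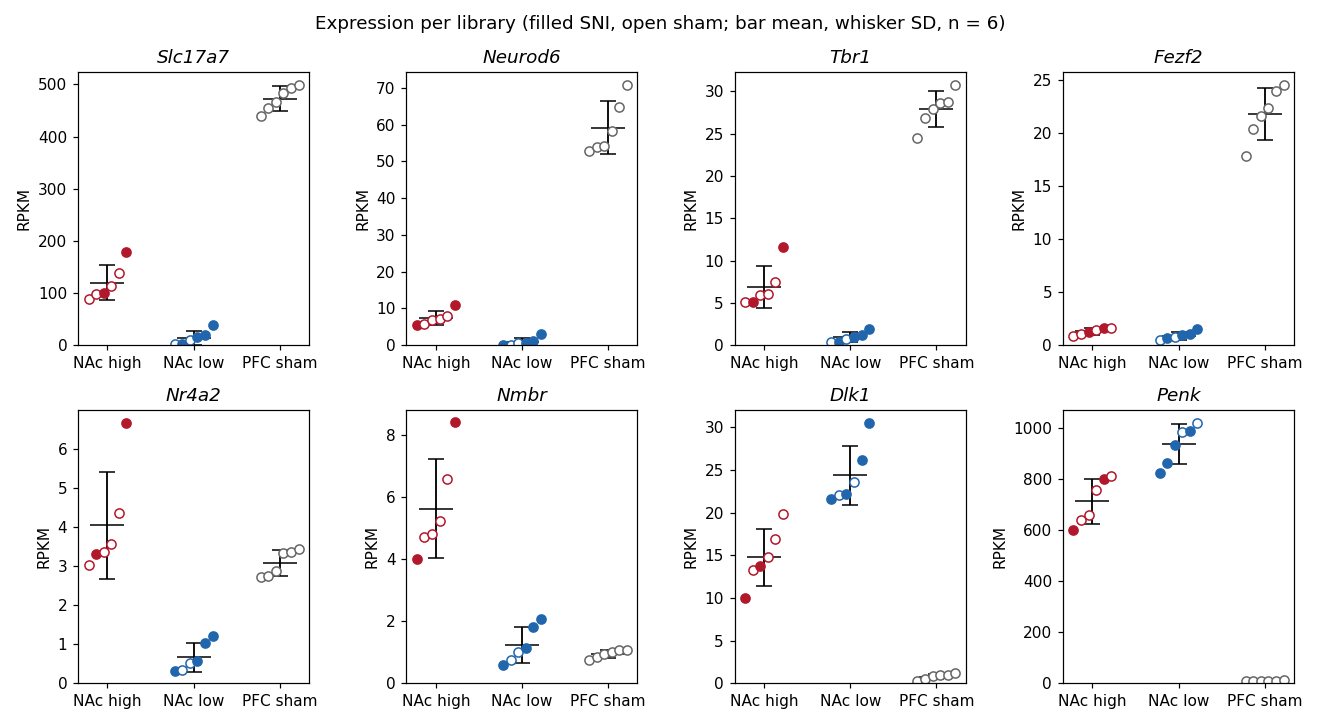
RPKM of 8 genes in the 6 high NAc, 6 low NAc and 6 PFC sham libraries; each point is a library, filled for SNI and open for sham, with the mean as a bar and the SD as a whisker. Slc17a7, Neurod6, Tbr1 and Fezf2 stand far below PFC in both NAc sets, Nr4a2 and Nmbr reach or pass the PFC level in the high libraries, and Dlk1 and Penk are lower in the high than in the low libraries and near 0 in PFC relative to both.

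Beyond these markers, the difference between the sets was carried by more genes on the higher than on the lower side. Of 15264 genes that averaged 0.5 RPKM or more over the 12 libraries, 147 (0.963%) had a fold of at least 1.5 and were higher in all 6 high libraries than in all 6 low ones, and 3 (0.0197%) were lower by the same rule. Without the fold limit, 426 genes (2.79%) lay higher without overlap and 116 (0.76%) lower. The median log2 difference over all genes was −0.01, and 45.3% of genes had a difference above 0. Of the 147 genes 143 were protein coding, and their log2 differences ran from 0.59 to 3.92, with a median of 0.91. Since the libraries were chosen on a gene of this contrast, nothing is read from these counts beyond their size.

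The largest differences after the markers began with a neuropeptide gene. Cck, the precursor of the neuropeptide cholecystokinin, ranged from 28.2 to 44.9 RPKM in the high libraries (median 36.1) and from 2.71 to 14.2 RPKM in the low libraries (median 4.64), with 199 ± 29 RPKM in PFC sham libraries; its log2 difference was 2.81 (SE 0.32). Slc30a3, which loads zinc into glutamatergic synaptic vesicles, averaged 6.28 ± 1.99 RPKM in the high and 0.772 ± 0.716 RPKM in the low libraries (2.70, SE 0.32). Nrn1, which encodes the activity-regulated neurite growth protein neuritin, averaged 15.3 ± 6.77 and 2.37 ± 1.59 RPKM in the high and low libraries (2.69, SE 0.37). All 3 genes had their highest low library in SNI 11 or, for Nrn1, in SNI 8.

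Nov, a secreted matricellular protein, averaged 16.2 ± 4.75 RPKM in the high and 2.76 ± 1.62 RPKM in the low libraries (2.52, SE 0.33). Prss12, which encodes the neuronal protease neurotrypsin, averaged 5.15 ± 1.14 and 0.834 ± 0.850 RPKM in them (2.35, SE 0.29). Neurod2, a transcription factor of the same family as Neurod6, averaged 3.40 ± 0.770 and 0.488 ± 0.5 RPKM (2.21, SE 0.26). Bmp3, a secreted ligand of the bone morphogenetic protein family, completed the largest differences with 2.20 ± 0.550 RPKM in the high and 0.335 ± 0.319 RPKM in the low libraries (1.81, SE 0.22).

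Slc17a7 belongs to the list of glutamatergic identity genes and is left out of its counts, since it chose the libraries. Of the other 17 genes 15 passed the filter on low values, all 15 had a difference above 0, and 9 were called by the fold and overlap rule, against 0.963% of all genes, with a median of 1.26 against −0.01 over all genes. These genes come from the contrast that chose the libraries, so nothing further is read from the counts. Besides those above, the called genes included Bhlhe22 (1.38), a transcription factor of cortical projection neurons, the synaptic pentraxin Nptx1 (1.26) and Sv2b (0.79), a synaptic vesicle protein. Rtn4rl2, a receptor that limits axon growth, had a log2 difference of 1.59 with overlapping sets. Mef2c (0.39), Nrgn (0.22), Dkk3 (0.21), Emx2 (0.11) and Lhx2 (0.07) overlapped between the sets, and in the low libraries they already stood at 19.1%, 19.5%, 17.7%, 69% and 46.8% of the PFC sham mean. The 2 genes under the filter were Neurod1, at 0.559 RPKM in the high and 0.127 RPKM in the low libraries, and Emx1, at 0.428 and 0.0989 RPKM.

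Genes by which cortical layers are told apart differed unevenly. Of 12 upper layer genes tested, 2 had a difference above 0 and none was called, with a median of −0.14. Over all genes 45.3% lay above 0, 0.963% were called higher and 2.79% lay higher without overlap. Rorb, a transcription factor of layer 4, was higher without overlap by less than the fold limit (0.47), as was Stard8 (0.33), while Lamp5 (−0.40), Otof (−0.34) and Cux2 (−0.23) lay lower with overlap. Wfs1 had the largest lower difference of that list (−0.85, SE 0.21), with 57.5 to 131 RPKM in the high and 127 to 231 RPKM in the low libraries, and in both sets it was above the 32.1 RPKM of PFC. Among 11 layer 5 genes 7 lay above 0, with a median of 0.21. Npr3, a clearance receptor for natriuretic peptides, was the called one (0.84), and Tox (0.36) did not overlap.

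Among 11 layer 6 and subplate genes 7 lay above 0, with a median of 0.09, and 3 were called. For all genes tested, 45.3% lay above 0 and 0.963% were called higher, and 2.79% and 0.76% lay higher and lower without overlap. Ctgf, which encodes a matricellular protein of subplate neurons, ranged from 2.92 to 8.19 RPKM in the high libraries (median 3.96) and from 0.712 to 1.53 RPKM in the low libraries (median 1.15; log2 difference 1.72, SE 0.25). Cplx3, a complexin that acts in vesicle release, ranged from 1.69 to 4.08 RPKM in the high and from 0.387 to 0.945 RPKM in the low libraries (1.49, SE 0.17). Nxph4, a neurexin ligand, had a log2 difference of 0.94 (SE 0.12). Ntsr1 (0.51) and Zfpm2 (0.42), markers of layer 6, did not overlap between the sets and stayed under the fold limit, and Syt6 was lower without overlap (−0.26).

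Of 6 claustrum and endopiriform genes tested, 2 lay above 0 and both were called, with a list median of −0.11. The shares over all genes were 45.3% above 0 and 0.963% called higher. Nr4a2 (ENSMUSG00000026826; chromosome 2, 57106830 to 57124003), a nuclear receptor transcription factor expressed in claustrum, endopiriform nucleus and subplate, had 6.67 and 3.31 RPKM in the high SNI libraries 7 and 10 and 4.35, 3.36, 3.55 and 3.02 RPKM in the high sham libraries 2, 3, 4 and 6. It had 0.581, 1.03, 1.21 and 0.317 RPKM in the low SNI libraries 8, 9, 11 and 12 and 0.510 and 0.340 RPKM in the low sham libraries 1 and 5. The sets were apart, with a log2 difference of 2.11 (SE 0.20). Ntng2, which encodes the synaptic adhesion protein netrin-G2, was the other called gene (0.72, SE 0.12). Synpr (−0.43), Gnb4 (−0.25) and Nnat (−0.12), also used as claustrum genes, lay lower with overlap.

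**Figure D2:**
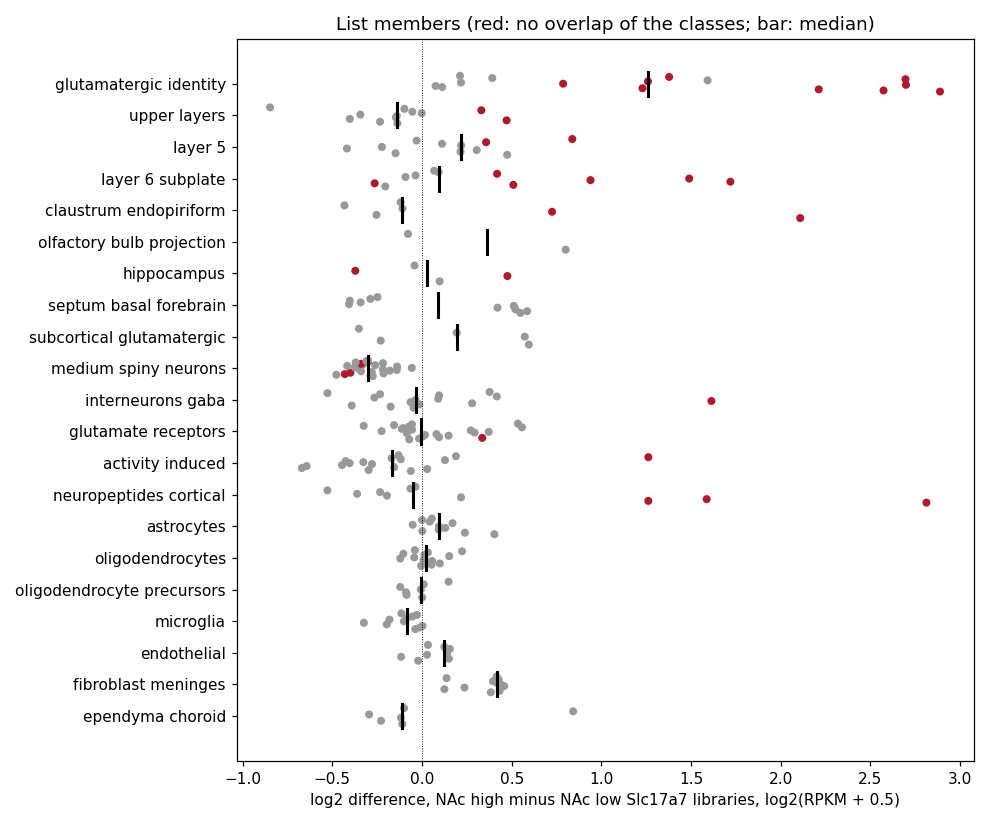
Log2 difference of high minus low NAc libraries for the members of 21 gene lists, without Slc17a7, on the log2(RPKM + 0.5) scale; each point is a gene, red where the 6 high and 6 low libraries do not overlap, and the bar is the list median. The glutamatergic identity list has its median at 1.26, the medium spiny neuron list lies wholly below 0, and most other lists have medians near 0 with single genes far out.

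Setting the NAc means against PFC sham showed that the called genes did not reach a common fraction of the cortical level. Over the 147 genes the high libraries had a median of 39.0% of the PFC sham mean (quartiles 26.8% and 61.3%), and the low libraries 20.7%. Slc17a7 (25.3%) and Tbr1 (24.7%) were alike in this, and Neurod2, Slc30a3, Nrn1, Cck and Bmp3 lay between 18.2% and 20.7%. Neurod6 was lower, at 12.3%. Fezf2, which directs subcerebral projection neurons of layer 5, had 1.3 ± 0.311 and 0.905 ± 0.372 RPKM in the high and low libraries against 21.8 ± 2.47 RPKM in PFC, 5.95% and 4.15%, with overlapping sets.

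By list, the high libraries stood at a median of 121% of the PFC level for upper layer genes (33.6% to 429%), 43.3% for layer 5 genes (5.95% to 190%), 81.9% for layer 6 and subplate genes (18.5% to 483%) and 145% for claustrum and endopiriform genes (98.4% to 298%), against 109%, 40.9%, 61.7% and 171% in the low libraries. For glutamatergic identity genes other than Slc17a7 the medians were 20.6% in the high and 4.68% in the low libraries, and over all genes tested they were 106% in both sets. The layer lists therefore spanned wide ranges and did not share a level. Their called members differed in the same way. Of the layer 6 and subplate genes called, the high libraries had 81.9% of the PFC level for Ctgf, 70.1% for Cplx3 and 189% for Nxph4, against 18.5%, 17.8% and 77.4% in the low libraries. The called claustrum genes Ntng2 and Nr4a2 stood at 98.4% and 132% in the high libraries, against 56.4% and 21.6% in the low libraries. Zfpm2 of layer 6 and Tox of layer 5, apart under the fold limit, had 18.5% and 23.3% in the high libraries, against 12.3% and 17% in the low libraries. No cell type was assigned to these differences.

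**Figure D3:**
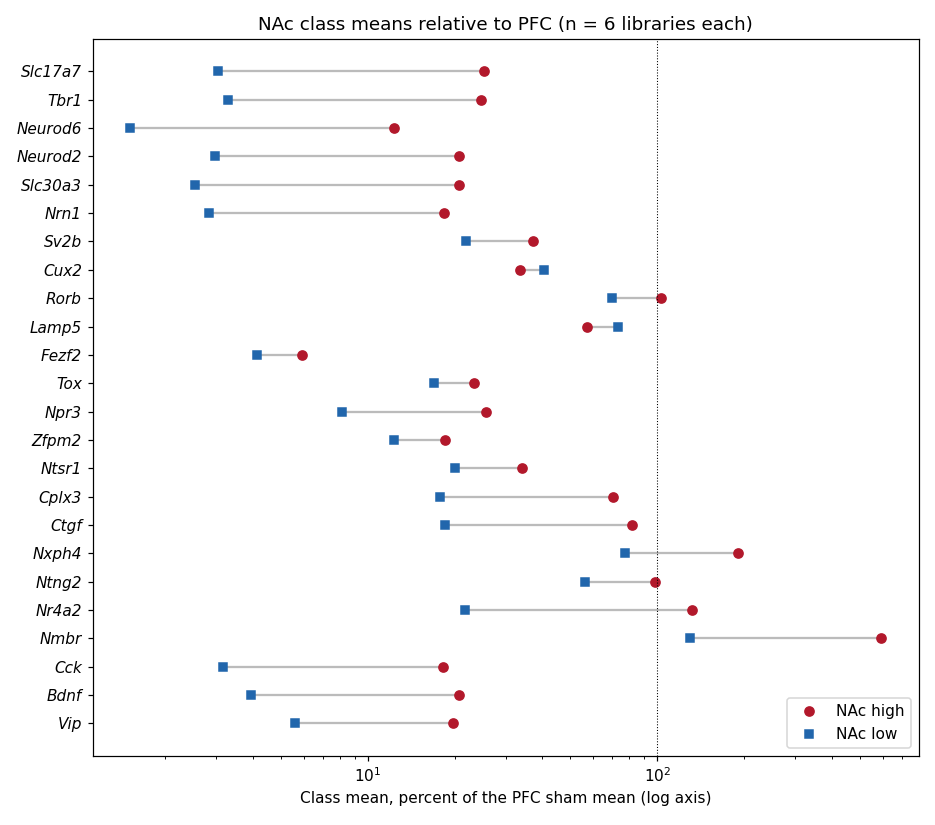
Mean of the 6 high (circles) and 6 low (squares) NAc libraries as a percent of the mean of 6 PFC sham libraries, on a log axis, for 24 genes. Slc17a7 and Tbr1 reach about 25% of PFC in the high libraries, Fezf2 about 6%, and Nxph4, Nr4a2 and Nmbr lie beyond 100%.

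A set of 132 genes, which shares members with the called genes, had at least 5 RPKM in PFC sham and a PFC mean at least 4 times that of the low libraries. The level of the low libraries thus entered their choice, which favours genes low in that set. Their high mean was 26% of PFC at the median (quartiles 19.8% and 33.6%) and their low mean 14.8%. The step between the sets, as a percent of the step between the low libraries and PFC, had a median of 14.2% and quartiles of 8.20% and 21.3%. It was 22.9% for Slc17a7 and 22.1% for Tbr1, 11% for Neurod6 and 77.8% for Ctgf, but 1.88% for Fezf2 and 1.17% for Nrgn, a calmodulin-binding protein of dendrites. A total of 20 of the 132 genes had a step under 5%.

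In 19 of the 147 genes (12.9%) the mean of the high libraries passed the PFC mean, where 59.7% of all 15264 genes had a higher mean in the high NAc libraries than in PFC. In 14 of the 19 the low libraries lay under PFC, and in 5 they lay above it too. Nmbr (ENSMUSG00000019865; chromosome 10, 14705591 to 14770850), the receptor of the peptide neuromedin B, had 8.41 and 4.02 RPKM in the high SNI libraries 7 and 10 and 5.23, 4.72, 4.82 and 6.57 RPKM in the high sham libraries 2, 3, 4 and 6. It had 1.15, 1.81, 2.07 and 0.591 RPKM in the low SNI libraries 8, 9, 11 and 12 and 1 and 0.759 RPKM in the low sham libraries 1 and 5, against 0.759 to 1.08 RPKM in PFC sham. Its level in the high libraries was therefore 592% of PFC, and the log2 difference of high minus low was 1.94 (SE 0.23).

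Others of these 19 were chosen for mention after their values were seen. Ndst4, an enzyme of heparan sulfate synthesis, averaged 4.09 RPKM in the high and 1.15 RPKM in the low libraries, against 0.121 RPKM in PFC. Oxtr, the oxytocin receptor, averaged 2.75 ± 0.443 and 1.08 ± 0.255 RPKM in the high and low libraries against 1.27 RPKM in PFC. Frzb, a secreted inhibitor of Wnt ligands, averaged 3.13 and 0.692 RPKM against 2.66 RPKM in PFC. Npsr1, the receptor of neuropeptide S, averaged 1.76 and 0.962 RPKM against 0.791 RPKM, and the adrenergic receptor Adra2a 2.81 and 1.18 RPKM against 1.51 RPKM.

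The choice of libraries did not use the regions outside NAc, but the 147 genes come from the contrast that Slc17a7 made and include it. Their shares between the regions are therefore a description and no independent test of the sets. Of the 147 genes 145 were tested between PFC and PAG in sham mice, and 76 of them (52.4%) were higher in PFC by at least 2-fold at a limma adjusted p under 0.05, where this held for 7.63% of the 14817 genes tested in both. Another 5 (3.45%) were lower in PFC, against 6.11% of those 14817 genes. Slc17a7 (log2 difference of PFC minus PAG 7.44, limma adjusted p = 1.66e-16), Tbr1 (5.47, 1.74e-16) and Neurod6 (5.40, 1.92e-15) were among the 76. The 5 genes lower in PFC were Ndst4, Adra2a, Nxph4, Npsr1 and Nell1, named after their values were seen, and each of these also passed the PFC mean in the high libraries. Nxph4 had 0.793 RPKM in PFC sham against 11.4 RPKM in PAG sham libraries (−3.20, adjusted p = 1.49e-12). Over all genes tested 1227 (7.84%) were higher and 1202 (7.68%) lower in PFC than in PAG, of 15658 genes.

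Medium spiny neuron genes were lower in the high libraries by small amounts. All 24 tested had a difference below 0, from −0.48 to −0.06, with a median of −0.30, and none reached the fold limit. Penk (−0.43, SE 0.09), Pdyn (−0.40, SE 0.09), which encodes dynorphin, the G protein subunit gene Gng7 (−0.34) and the transcription factor Six3 (−0.30) did not overlap between the sets. Over all genes 45.3% had a difference above 0, and 0.76% lay lower without overlap. Pdyn ranged from 82.5 to 113 RPKM in the high libraries (median 105) and from 122 to 148 RPKM in the low libraries (median 133). The dopamine receptor genes Drd1a and Drd2 differed by −0.28 (SE 0.08) and −0.29 (SE 0.09), at 77.1 ± 7.88 and 86.0 ± 12.2 RPKM in the high and 91.8 ± 8.21 and 106 ± 4.83 RPKM in the low libraries, with overlap for both. The summed level of the list was 2524 to 3513 RPKM in the high and 3358 to 3862 RPKM in the low libraries, so the sums overlapped. The high libraries were uneven in the mean deviation of the list from the NAc mean, on the log2 scale. It was −0.39 in SNI 7, −0.35 in sham 2 and −0.23 in sham 6. In sham 3, sham 4 and SNI 10 it was −0.03, 0.0002 and 0.11. The low libraries ran from 0.05 in SNI 9 to 0.24 in SNI 12.

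The 3 genes called lower in the high libraries were none of these. Dlk1, a transmembrane inhibitor of differentiation, ranged from 10.04 to 19.8 RPKM in the high libraries (median 14.3) and from 21.6 to 30.5 RPKM in the low libraries (median 22.9; log2 difference −0.77, SE 0.14). Crabp1, which binds retinoic acid, averaged 4.97 ± 0.880 RPKM in the high and 7.59 ± 0.719 RPKM in the low libraries (−0.64, SE 0.10). Fgf3, a fibroblast growth factor named although its level is under the limit for naming, averaged 0.941 ± 0.326 and 1.86 ± 0.408 RPKM in them (−0.81, SE 0.16). Each of the 3 was at or under 0.799 RPKM in PFC sham.

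The interneuron and neuropeptide lists each held called genes, where 0.963% of all genes were called higher and 45.3% lay above 0. Vip, which encodes a peptide of cortical interneurons, was the called one of 15 GABAergic interneuron genes, at 5.49 ± 1.19 RPKM in the high and 1.57 ± 0.496 RPKM in the low libraries (1.61, SE 0.18), while Sst (−0.06), Npy (−0.04), Gad1 (−0.05) and Gad2 (−0.18) had small differences and the list median was −0.04, with 6 of 15 above 0. The neuropeptide list holds 10 neuropeptide and growth factor genes of cortical neurons, with Nrgn among them. Of these 4 lay above 0 and 3 were called, with a median of −0.05. The called genes were Cck, Bdnf (1.26, SE 0.15), a neurotrophin made by cortical glutamatergic neurons, and Adcyap1 (1.59, SE 0.27), the precursor of the peptide PACAP. Bdnf averaged 1.15 ± 0.295 RPKM in the high and 0.219 ± 0.140 RPKM in the low libraries, and Adcyap1 2.01 ± 1.03 and 0.394 ± 0.273 RPKM. Bdnf also stood in the list of 17 activity-induced genes, of which it was the called one. That list had a median of −0.17 with 4 genes above 0, and its other members overlapped, for example Egr2 (−0.64) and Fos (−0.06).

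Of 22 glutamate receptor genes 11 lay above 0 and none was called, with a median of −0.01. Gria3, an AMPA receptor subunit, did not overlap (0.34), and Gria1 (−0.07) and Gria2 (−0.02) were nearly level. Of all genes 2.79% lay higher and 0.76% lower without overlap. The lists of septum and basal forebrain, subcortical glutamatergic, hippocampal and olfactory bulb genes held no called gene. Of all genes 0.963% were called higher and 0.0197% lower, and 45.3% lay above 0. At these shares lists this short can hold no call, so nothing is read from its absence. Septum and basal forebrain genes had 5 of 10 above 0 and a median of 0.09, with Zic1 (0.59), Trpc4 (0.55) and Lhx8 (−0.41). Subcortical glutamatergic genes had 3 of 5 above 0 and a median of 0.19, with Slc17a6, the transporter of thalamic and brainstem glutamatergic neurons, at 2.79 ± 0.748 RPKM in the high and 1.62 ± 0.449 RPKM in the low libraries (0.60, SE 0.19). Hippocampal genes had 2 of 4 above 0 and a median of 0.03, with Fibcd1 higher (0.48) and Spink8 lower (−0.37) without overlap. Of 2 olfactory bulb genes tested 1 lay above 0, Cdhr1, at 3.39 RPKM in the high and 1.73 RPKM in the low libraries (0.80, SE 0.18).

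Glial and vascular lists differed little between the sets. Astrocyte genes had 9 of 11 above 0 and a median of 0.09, oligodendrocyte genes 9 of 14 and 0.02, oligodendrocyte precursor genes 3 of 7 and −0.01, microglial genes 1 of 11 and −0.08, endothelial genes 7 of 9 and 0.12, and ependymal and choroid plexus genes 1 of 6 and −0.11. None of their members was called or without overlap. Of all genes 45.3% lay above 0, 0.963% were called higher, and 2.79% lay higher and 0.76% lower without overlap. At these shares short lists can hold no such gene, so nothing is read from that absence. Fibroblast and meningeal genes had 11 of 11 above 0 with a median of 0.42, and every one overlapped. Their summed level was 14.6 to 102 RPKM in the high and 11.9 to 28.3 RPKM in the low libraries, and the matrix genes Dcn (15 RPKM) and Ogn (13.2 RPKM) were highest in sham 4. Without sham 4 the list median was 0.11, without sham 1 it was 0.20, and over SNI libraries alone it was −0.04, against 0.81 over sham libraries alone. None of the defining markers Dcn, Lum and Aldh1a2 was at 0 in a library, and the part of these cells in the other differences was not tested.

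Within the sets the 147 genes shared an order in part. Among the 6 high libraries SNI 7 held the highest value of 126 of the 147 genes (85.7%), where it held the highest of 18.9% of all genes tested. The lowest value of the high libraries lay in SNI 10 for 62 genes (42.2%; 29.3% of all genes) and in sham 3 for 48 (32.7%; 10.5%), although sham 3 was the lowest for Slc17a7, so no single library closed the high set. Among the 6 low libraries SNI 11 held the highest value of 76 genes (51.7%; 18.9% of all genes) and SNI 9 that of 42 (28.6%; 14.3%). SNI 12 held the lowest value of 96 genes (65.3%; 26.4%) and sham 5 that of 31 (21.1%; 9.21%). The limits of 80 and 40 RPKM therefore cut a range in which libraries of one set differed among themselves. The mean deviation of the glutamatergic list without Slc17a7 from the NAc mean, on the log2 scale, ran from 0.39 in sham 3 to 0.91 in SNI 7 among the high libraries and from −1 in sham 5 to −0.05 in SNI 11 among the low ones.

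Depth differed between the sets. The high libraries held 56.9 ± 6.23 M assigned reads (49.8 to 64.9) and the low libraries 46.5 ± 9.72 M (31.2 to 57.2; two-sided exact permutation p = 0.0498, n = 6 each). The p passed the threshold in 3 of the 12 sets left by omitting 1 library, without sham 3, 5 or 6, and lay between 0.0563 and 0.0996 in the other 9. RPKM are scaled to depth, the top 10 genes took 5.71% of reads in the high and 5.60% in the low libraries, and the GC slopes were −0.0238 ± 0.131 and 0.0238 ± 0.120 log2 units per 10 points of GC content. Whether depth enters any gene's difference was not tested.

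Surgery was spread over both sets. Of the 6 high libraries 2 were SNI and 4 sham, and of the 6 low libraries 4 were SNI and 2 sham (two-sided Fisher's exact p = 0.567). Slc17a7 averaged 59.0 ± 67.9 RPKM over the 6 SNI and 74.9 ± 56.4 RPKM over the 6 sham libraries. Its log2 difference of SNI minus sham was −0.35 in a model of surgery alone (SE 1.16; limma adjusted p = 0.929). No value of Slc17a7 from the model that also holds the set is given, since the set was made from it.

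The glutamatergic list without Slc17a7 had opposite medians in the models without and with the set. In the model of surgery alone 12 of its 15 genes lay below 0, with a median of −0.20, where 60.7% of all genes lay below 0. With the set in the model 1 of 15 lay below 0, with a median of 0.28, where 59.4% of all genes did. Medium spiny neuron genes had medians of 0.12 without and 0.02 with the set, with 2 and 9 of 24 below 0. Both models use the same 12 libraries, and the genes of this list differ between the sets, so the medians are a description of the models and are given without a test.

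**Figure D4:**
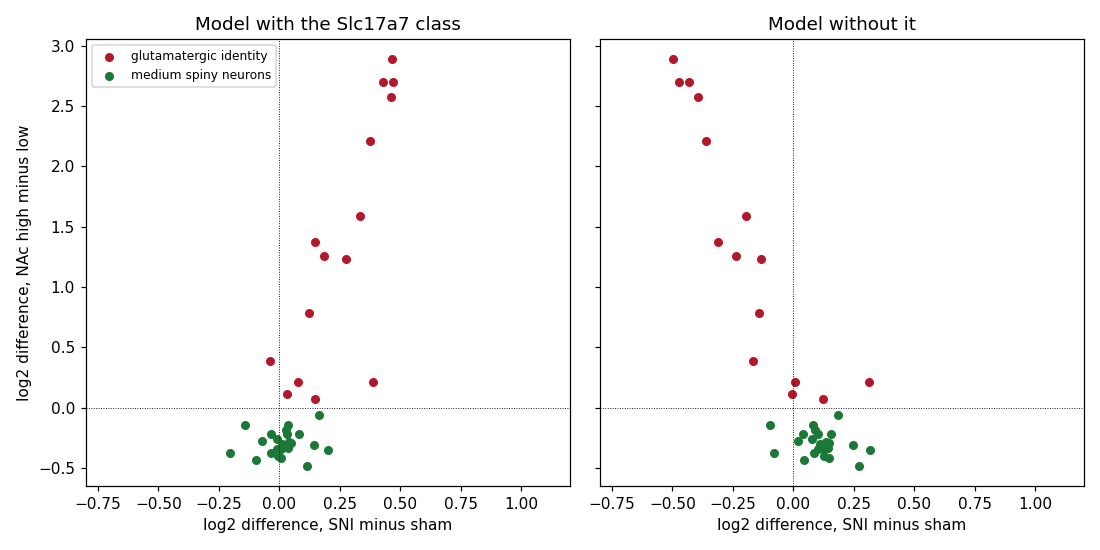
Log2 difference of SNI minus sham (horizontal) against that of high minus low NAc libraries (vertical) for 15 glutamatergic identity genes other than Slc17a7 (red) and 24 medium spiny neuron genes (green), in the model that holds the set (left) and in the model of surgery alone (right). The red points lie mostly right of 0 on the left, median 0.28, and mostly left of 0 on the right, median −0.20, and the green points move less.

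Across all genes, Slc17a7 included, surgery gave no call in either model. With the set as a term 0 of 15264 genes (0.0%) passed a limma adjusted p of 0.05, the lowest being 0.295, and 741 had an unadjusted p under 0.05; voom, limma's method for counts, gave 0 and 571 on the recovered reads. Without it the counts were 0 (0.0%) and 660, with a lowest adjusted p of 0.0907, and voom gave 0 and 554. The interaction of surgery with the set gave 0 (0.0%) and 213, and voom 0 and 196. Without SNI 7 the unadjusted counts were 3089 with the set and 3144 without it, where 3 genes then passed adjustment. Without sham 1 they were 344 and 400, without SNI 10 they were 406 and 351, and without SNI 12 the count in the model of surgery alone was 317. The interaction count was 366 without SNI 8 and 138 without SNI 9. Omitting SNI 7 or 10 leaves a single SNI library in the high set. Omitting sham 1 or 5 leaves a single sham library in the low set. No interaction count is given for these omissions, since it would rest on that library.

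The genes of smallest p for SNI minus sham with the set in the model were mostly of low level. Gm26387, a small nucleolar RNA gene, had 2.25 ± 0.318 RPKM in SNI and 3.60 ± 0.272 RPKM in sham libraries, without overlap (log2 difference −0.54, SE 0.08; limma adjusted p = 0.295). The others all had an adjusted limma p of 0.862. Vkorc1, an enzyme of the vitamin K cycle, averaged 1.14 ± 0.136 RPKM in SNI and 0.770 ± 0.137 RPKM in sham libraries (0.39, SE 0.09), and Banp, a nuclear matrix protein, 3.50 ± 0.728 and 2.50 ± 0.224 RPKM (0.38, SE 0.11). Gsta3, a glutathione transferase, averaged 1.68 ± 0.292 RPKM in SNI and 2.25 ± 0.320 RPKM in sham libraries (−0.42, SE 0.09), with overlap. The protease gene Capn11 (0.93) and the small RNA genes Gm22121 (1.06), n-R5s207 (−0.81) and Gm25112 (−0.87) completed the set of 8. Small RNA genes are captured poorly in libraries of polyadenylated RNA.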

How the data were processed

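The authors deposited 1 table of RPKM values for 31554 genes with gene lengths. TopHat2, HTSeq and mm10 were used, per the submitters' processing notes; their roles, versions, settings and the strand setting were not given in the sources used here, so overlapping, antisense and near-identical genes are uncertain. Multiplied by length and depth, 100% of values gave whole reads (tolerance 0.001), which recovered depths of 31.2 to 64.9 M reads in NAc and 27.6 to 64.9 M over the series. At 0.5 RPKM a gene of 1 kb had 15.6 reads in the shallowest NAc library, a counting error of 25.3%. GENCODE M21 on the same build matched 97.9% of identifiers.

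Genes averaging 0.5 RPKM or more over the 12 libraries of a fit were modelled on log2(RPKM + 0.5) with limma 3.58.1 (R 4.3.3; mean-variance trend, Benjamini-Hochberg adjustment, threshold 0.05, two-sided), with the Slc17a7 set and surgery as terms, or surgery alone, or both with their interaction, and PFC against PAG sham with a fold of at least 2. The model of set and surgery, for both of its terms, and the PFC against PAG fit were tested on simulated data with independent noise per gene. The models of surgery alone and with the interaction, and the fold and overlap rule, were not tested in this way. Depth was compared by exact permutation over 924 assignments of 12 libraries. Permutation and counting used Python 3.11.15 with SciPy 1.17.1.

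Named genes were Slc17a7, Neurod6 and Tbr1; the 12 largest called differences per direction with at least 2 RPKM in the higher set, passing over predicted genes; up to 5 members per list with the largest difference and those with the highest and lowest percent of PFC; and for surgery the 4 genes of smallest p per direction whose fold reached 1.3. Some genes this rule names are not reported here, and a few others are given as list members. The members, sets and 21 lists were chosen with earlier results of these data known. Nectin3, Ccn2, Smim32 and Drd1 were not matched by symbol; Ctgf and Drd1a were. Alternatives were pseudocounts of 0.1 and 1, no filter or 2 RPKM, median-of-ratios or quantile scaling, voom on the recovered reads with trimmed-mean scaling, other fold limits, each surgery alone, Slc17a7 as a continuous term and omission of single libraries. The percent of the step to PFC, and the omission of sham 4 with SNI 7, were added after seeing the data.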

Additional observations from a re-analysis of the deposited data

Results flagged for a closer look

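In 33 genes named above, 68 sets of 6 values were examined for a library far from the others, by the gap of the highest or lowest value to its neighbour relative to the whole range (critical value 0.625), and 10 stood out. Chance alone would give about 1 in 20 sets if the values were independent and normally distributed. Genes that vary together are not independent, so the 10 are not compared with that rate. Among the low libraries SNI 11 stood above the others for Neurod6 (2.95 RPKM, the others 0.0981 to 1.12), Prss12 (2.53 RPKM, the others 0.315 to 0.775) and Bmp3 (0.947 RPKM, the others 0.105 to 0.390). Among the high libraries SNI 7 stood above the others for Tbr1 (11.6 RPKM, the others 5.14 to 7.46) and Nr4a2 (6.67 RPKM, the others 3.02 to 4.35). Sham 4 stood above the other high libraries for 4 fibroblast genes, namely Dcn (15 RPKM, the others 2.04 to 5.53), Aebp1 (10.7 RPKM, the others 1.74 to 3.70), Aldh1a2 (12.8 RPKM, the others 1.16 to 3.92) and Ogn (13.2 RPKM, the others 0.637 to 4.53). SNI 8 stood above the other low libraries for Dcn (4.62 RPKM, the others 1.51 to 2.32).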

How the results depend on the processing

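No paired analysis was made. The replicate numbers run on through the series, so they do not show whether libraries of different regions share mice. PFC and PAG were compared as unpaired. The 150 genes called between high and low libraries became 226 over sham libraries alone (209 higher, 17 lower) and 252 over SNI libraries alone (202 and 50), where fewer libraries make overlap rarer; 135 and 140 of the 150 were among them. They became 283 at a fold of 1.3 and 61 at a fold of 2. Omission of single libraries gave 121 (without SNI 7) to 187 (without SNI 10), and the other alternatives 103 (filter of 2 RPKM) to 199 (voom). The surgery count with the set became 1 with log2 Slc17a7 as a continuous term (Gm26387, adjusted p = 0.0277 with limma) and was 0 in every other alternative, where the lowest adjusted p of any gene was 0.147 to 1. Without the set it ranged from 0 to 3 over omissions of single libraries, with 3 (Per1, Tipin and Gm26387) without SNI 7, and it was 3 without sham 4 and SNI 7. The interaction count was 10 with no filter, all small RNA genes or pseudogenes. PFC against PAG gave 2360 to 2498 genes over omissions of single libraries, 587 at a fold of 4, and median-of-ratios scaling moved the split to 1393 higher and 1031 lower. The depth difference of 10.4 M reads ranged from 7.37 to 12.6 M. For 130 named genes, 3016 of 3080 alternative values lay within 1 SD of the reported difference, 64 moved further and no called gene changed sign. Over called and uncalled named genes together, 2988 of the 3080 values kept the sign of the named difference. The list medians of glutamatergic identity without Slc17a7 (0.79 to 2.20) and medium spiny neurons (−0.39 to −0.21) kept their sign in all alternatives.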
